A study of Mus musculus with 6 samples.

Results

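The Zbtb genes encode transcription factors in which a BTB domain at the amino end forms dimers and recruits corepressors, while zinc fingers at the carboxyl end bind DNA. Members were taken by name, as every protein coding gene of the count table whose symbol starts with Zbtb and a digit. This gave 41 of the 54532 genes in the table, on 15 chromosomes, and 34 of them had enough counts to be among the 13352 genes tested. The family was chosen from these data because Zbtb21 was among the genes with the smallest p-values between the marrow regions, so the values of that contrast describe the family and serve as no evidence for it. The symbol also takes in Zbtb8os, which encodes a tRNA ligase cofactor and not a BTB zinc finger protein. The table's own annotation of transcription factor families marks 35 of the 41 members as ZBTB.

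BTB zinc finger proteins mostly act as repressors, through NCOR and BCOR complexes and histone deacetylases, and some bind the ubiquitin ligase subunit Cul3. In blood they are best known as lineage factors. Zbtb7a (LRF) directs erythroid and B cell fate and is recurrently mutated in human AML with the AML1-ETO fusion, Zbtb7b (ThPOK) sets the helper T cell fate, Zbtb1 is needed for lymphoid development, and Zbtb16 (PLZF) is fused to RARA in a rare leukemia.

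The libraries were made from AE9a leukemia cells, which are mouse blood progenitors of the C57BL/6 strain driven by a retrovirus that carries AML1-ETO9a, a splice form of the AML1-ETO fusion, and GFP. The cells came from mice of the third transplant generation, so all 6 libraries come from the same transplantable leukemia model, and they were kept in serum medium around the sort. Central marrow (CBM, n = 3) was flushed from femurs and tibias, and endosteal marrow (EBM, n = 3) was released from the flushed bones with collagenase I at a warm temperature. Region and digestion coincide in every library and cannot be told apart, and the labels do not say which libraries came from separate mice, so p-values cover only the spread among these samples, which may be technical.

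Depth ran from 16436526 to 19462964 counts per library, and a floor of 3 counts corresponded to 0.149 to 0.193 CPM, which covers counting error only. Of the markers of leukemic progenitors, Kit, Myb and Gata2 were well counted in all 6 libraries, whereas the pan-leukocyte gene Ptprc averaged 1.30 CPM in CBM and 2.20 CPM in EBM and Flt3 failed the filter. None of the 9 osteoblast and stroma markers passed the filter, with summed levels of 0.397 to 1.16 CPM in CBM and 0.514 to 1.45 CPM in EBM, and Alpl and Sp7 at 0 throughout. The macrophage (0.578 to 2.63 CPM), endothelial (0.964 to 3.37 CPM) and lymphocyte (0.397 to 1.21 CPM) sums were as low. The neutrophil sum reached 214 CPM in CBM replicate 2 against 3.27 and 7.68 CPM in the other CBM libraries and 33.3 to 154 CPM in EBM. The erythroid sum was also highest in CBM replicate 2, at 5210 CPM, against 2096 to 3614 CPM in the other 5 libraries. The osteoclast sum, almost all of it from Acp5, ran from 270 to 540 CPM in CBM and from 258 to 565 CPM in EBM.

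Sequences just upstream of 5 members are shown because these members carry the clearest differences between regions (Zbtb21, Zbtb1) or sit beside another member whose level went with or against their own (Zbtb1 and Zbtb25, Zbtb34 and Zbtb43). Each is a RefSeq promoter window on GRCm38.p6, from 250 bases before to 50 bases after a start site, given 5′ to 3′ on the gene's strand. Capitals mark matches to the motifs searched on both strands, which were CACGTG (E-box), TGACGTCA (CRE), TGANTCA (AP-1), GGANTTNCC (NF-kB), GAANNTTC (heat shock element), GCATGCGC (NRF1) and CCGGAAGT (ETS).
Zbtb21, chr16:97962573-97962872, minus strand: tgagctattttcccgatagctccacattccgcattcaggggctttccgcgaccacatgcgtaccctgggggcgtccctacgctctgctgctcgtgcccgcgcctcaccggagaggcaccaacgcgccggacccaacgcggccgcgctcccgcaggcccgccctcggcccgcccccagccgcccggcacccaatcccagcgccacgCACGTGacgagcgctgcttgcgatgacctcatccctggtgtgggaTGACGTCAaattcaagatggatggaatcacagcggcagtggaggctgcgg
Zbtb1, chr12:76370270-76370569, plus strand: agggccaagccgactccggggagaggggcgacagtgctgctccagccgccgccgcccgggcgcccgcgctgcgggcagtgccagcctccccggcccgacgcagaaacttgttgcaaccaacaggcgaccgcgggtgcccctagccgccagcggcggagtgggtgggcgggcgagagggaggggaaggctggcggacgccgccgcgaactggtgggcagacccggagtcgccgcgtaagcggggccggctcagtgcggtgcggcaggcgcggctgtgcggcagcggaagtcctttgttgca
Zbtb25, chr12:76369511-76369810, minus strand: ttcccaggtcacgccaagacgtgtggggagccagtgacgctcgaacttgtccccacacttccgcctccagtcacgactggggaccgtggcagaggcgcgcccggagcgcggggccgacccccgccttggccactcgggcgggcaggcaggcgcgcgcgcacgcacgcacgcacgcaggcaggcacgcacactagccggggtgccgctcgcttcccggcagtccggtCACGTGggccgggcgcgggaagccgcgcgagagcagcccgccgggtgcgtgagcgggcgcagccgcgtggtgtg
Zbtb34, chr2:33431275-33431574, minus strand: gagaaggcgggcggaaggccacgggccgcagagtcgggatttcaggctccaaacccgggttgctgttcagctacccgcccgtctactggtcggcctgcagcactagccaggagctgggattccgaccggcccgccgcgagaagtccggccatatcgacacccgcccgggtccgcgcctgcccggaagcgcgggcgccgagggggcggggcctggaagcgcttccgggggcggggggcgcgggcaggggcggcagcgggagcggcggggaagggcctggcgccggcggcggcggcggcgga
Zbtb43, chr2:33468483-33468782, minus strand: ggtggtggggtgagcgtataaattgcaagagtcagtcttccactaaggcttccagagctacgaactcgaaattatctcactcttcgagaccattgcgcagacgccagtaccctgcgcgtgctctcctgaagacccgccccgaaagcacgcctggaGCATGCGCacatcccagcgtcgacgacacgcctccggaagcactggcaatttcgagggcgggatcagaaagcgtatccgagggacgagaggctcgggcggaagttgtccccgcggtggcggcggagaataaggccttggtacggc

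The Zbtb21 window held an E-box whose first base lies at position -45 and a CRE that starts at position 1, counted from the start site, and no base was shared between the motifs. The Zbtb25 window held an E-box at -24, and that of Zbtb43 an NRF1 motif at -95. None of the 7 motifs was found in the Zbtb1 and Zbtb34 windows, which says only that these letters are not there. A match describes the sequence and shows no binding.

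Windows were found for 36 of the 41 members, 32 of them tested members with 44 windows in all. The windows of the tested members were rich in GC, with a median of 65.7% against 52.7% over all 32851 windows. They held a median of 25.5 CpG against 7. The full set of windows was not limited to tested genes. E-boxes were found in 5 tested members (Zbtb11, Zbtb21, Zbtb24, Zbtb25 and Zbtb49), or 13.6% of their windows against 7.15% of all windows. The CRE was found in Zbtb11 and Zbtb21, or 4.55% of the windows against 1.79% of all. NRF1 motifs were in windows of Zbtb14, Zbtb17, Zbtb41 and Zbtb43 (11.4% of windows against 2.71%). ETS motifs were in those of Zbtb11, Zbtb37, Zbtb41 and Zbtb45 (9.09% against 3.89%), in Zbtb37 only after the start site. Overlapping windows of Zbtb25 hold the same E-box, and those of Zbtb17 the same NRF1 motifs, so these sites count in more than 1 window. By gene, E-boxes were in 15.6% of the tested members against 8.09% of all genes, and NRF1 motifs in 12.5% against 3.05%. The AP-1, heat shock and NF-kB motifs were found in 1 (Zbtb46), 1 (Zbtb2) and 2 (Zbtb26, Zbtb37) tested members, or 2.27%, 2.27% and 4.55% of windows, against 7.81%, 7.86% and 3.95% of all windows. All these shares were compared without matching for GC content and without limiting the full set to tested genes. The richness in GC of the members' windows stands beside the shares, and the part of either in them was not tested.

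Levels were compared between genes per length, as TPM, which divides the counts of a gene by its length and scales every library to the same total. The repressor Zbtb7a was the most abundant member in all 6 libraries. Its TPM was 86.6, 109 and 93.1 in the CBM libraries and 67.8, 67.6 and 79.9 in the EBM libraries. Every EBM value thus lay below every CBM value on this scale, as in 14.2% of all tested genes. In CPM, Zbtb7a overlapped between regions. At a mean of 84.0 TPM it stood 1.87 times above the next member, Zbtb22, at 44.9 TPM. Zbtb7a alone made up 16.0% of the summed TPM of the tested members in CBM and 14.02% in EBM.

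After these came Zbtb17 (Miz-1, the partner through which Myc represses genes) at 33.1 TPM, the methyl-CpG binder Zbtb33 (Kaiso) at 24.6 TPM and Zbtb7b at 23.9 TPM. The last pair do not differ beyond their spread, since Zbtb33 ran from 20.9 to 27.1 TPM and Zbtb7b from 18.1 to 29.4 TPM. Zbtb22 lies within the longer gene Tapbp on the same strand, and Tapbp took an average of 2907 counts per library, so part of the Zbtb22 level may be Tapbp reads. At the low end stood Zbtb3 at 2.19 TPM, Zbtb26 at 2.67, Zbtb49 at 4.26, Zbtb46 at 5.14 and Zbtb37 at 6.69. Zbtb26 shares its whole span of 10968 bases with Zbtb6 on the same strand, so the split of reads between these genes is uncertain.

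The family as a whole was expressed at modest levels. The median tested member stood at 11.9 TPM against 21.2 TPM for all tested genes, and 27 of the 34 tested members lay below that general median. The members were also long, with a median length of 5783 bases against 3702.5 over all tested genes. Variation between libraries of a region was modest, with a median biological coefficient of variation, the spread beyond counting error, of 17.2% for the members and 19.8% for all tested genes.

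**Figure D1:**
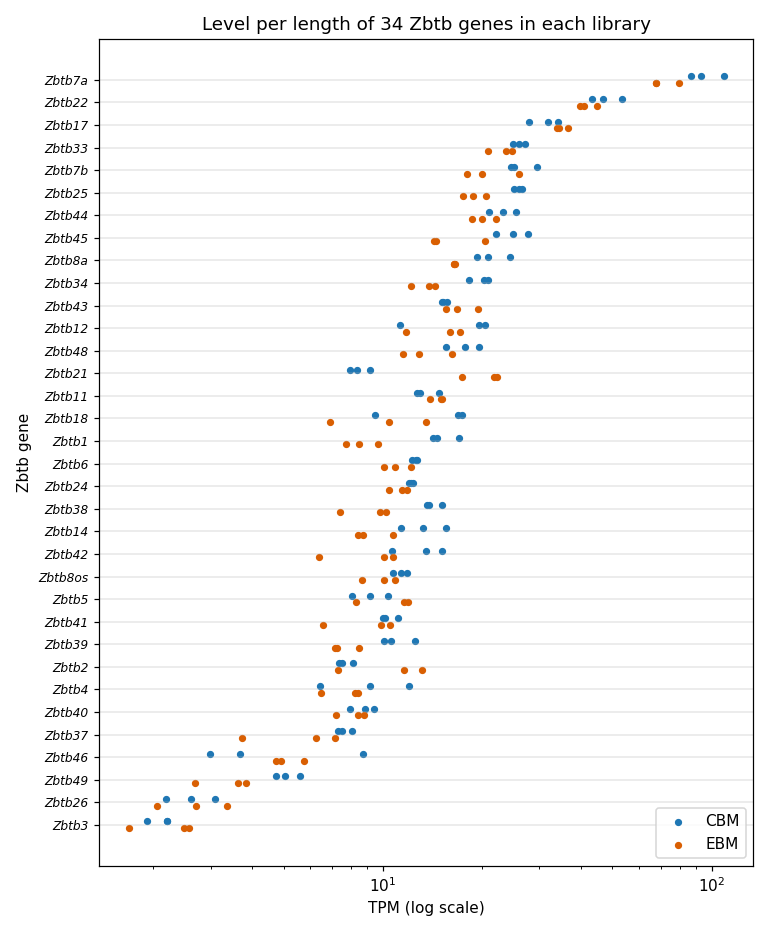
TPM (log scale) of the 34 tested Zbtb genes in each library, with CBM in blue and EBM in orange, ordered by mean TPM. Zbtb7a is highest at a mean of 84.0 TPM and Zbtb3 lowest at 2.19 TPM, and most genes have overlapping regions.

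The other 7 members were close to absent. Zbtb32, Zbtb8b, Zbtb20, Zbtb10 and Zbtb16 never exceeded 9 counts or 0.497 CPM in a library, and Zbtb9 and Zbtb7c had 0 counts in all 6. By the floor of 3 counts, which covers counting error only, 0 counts leave room for 0.149 to 0.193 CPM per library. Loss of reads to overlapping genes was not examined for these 7 members. Zbtb16 was counted only in EBM replicate 2, at 0.167 CPM. Zbtb20, a plasma cell and brain factor, reached at most 0.129 CPM, and Zbtb32, a repressor of activated lymphocytes, was highest in EBM replicate 1 at 0.497 CPM. At these counts no difference between regions was detectable.

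Between regions, Zbtb21 stood apart from the rest of the family. Zbtb21, a zinc finger repressor that binds Zbtb14, lies on the minus strand of chromosome 16 from 97943357 to 97962622 and is annotated with 8 transcripts in GENCODE M21. Its TMM-normalized CPM was 15.9, 17.1 and 18.0 in the CBM libraries and 47.6, 45.4 and 39.1 in the EBM libraries. The lowest EBM library thus lay far above the highest CBM library, with 608 raw counts against 363. The CBM libraries averaged 17 ± 1.04 CPM and the EBM libraries 44.0 ± 4.42 CPM (SD, n = 3), a log2 fold change (EBM over CBM) of 1.37 with a standard error (SE) of 0.12, and this is the contrast that selected it. The next highest log2 fold change in the family lay 0.78 below it, and among all 13352 tested genes Zbtb21 ranked 97 by log2 fold change. C2cd2, which shares 19242 bases with Zbtb21 on the same strand, had 11 to 29 counts in all libraries.

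By length, Zbtb21 moved from position 28 of the family in CBM, at 8.51 ± 0.62 TPM, to position 6 in EBM, at 20.5 ± 2.70 TPM (SD, n = 3). In EBM it thus stood beside Zbtb7b at 21.4 ± 4.08 TPM and Zbtb44 at 20.3 ± 1.76 TPM, from which it did not differ beyond their spread. Zbtb14, its known partner and itself a repressor, had 16.8, 23.5 and 19.3 CPM in CBM and 13.8, 12.9 and 17.8 CPM in EBM, a log2 fold change of -0.42 (SE 0.19). Its regions overlapped.

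With edgeR's quasi-likelihood test and Benjamini-Hochberg adjustment, no member passed an adjusted p of 0.05, and neither did any of the 13352 genes (percent of all genes called, 0). At an unadjusted p under 0.05 the same test called 4 members higher (4.01% of all genes) and 7 members lower (3.90% of all genes) in EBM. DESeq2 called Zbtb21 higher (1.04% of all genes) and Zbtb1 lower (0.349% of all genes). With limma-voom neither a member nor any other gene was called. Because the family was picked from this contrast, these counts are a description.

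The remaining members leaned to lower levels in EBM. Of the 34 tested members, 10 had positive and 24 negative log2 fold changes, with a median of -0.10. Over all tested genes 49.6% were negative and the median was 0.00. In 3 members (Zbtb21, Zbtb43 and Zbtb17) every EBM library lay above every CBM library in CPM, as in 7.47% of all tested genes. In 7 members (Zbtb1, Zbtb38, Zbtb49, Zbtb34, Zbtb39, Zbtb25 and Zbtb8a) every EBM library lay below, as in 7.65% of all tested genes. The other 24 overlapped. With a library left out, regions separate more often by construction. The higher count became 5 without CBM replicate 1, CBM replicate 2, EBM replicate 1 or EBM replicate 3, where 11.8%, 13.4%, 10.6% and 12.8% of all tested genes were higher without overlap. The lower count became 12 without CBM replicate 2 and 11 without EBM replicate 3, against 12.9% and 13.97% of all tested genes. On the TPM scale, which has no TMM factors and on which the median log2 ratio of all tested genes was itself -0.10, the split became 1 member higher, Zbtb21, and 14 lower, against 3.28% and 14.2% of all tested genes. Zbtb43 and Zbtb17 therefore overlap between regions on that scale.

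**Figure D2:**
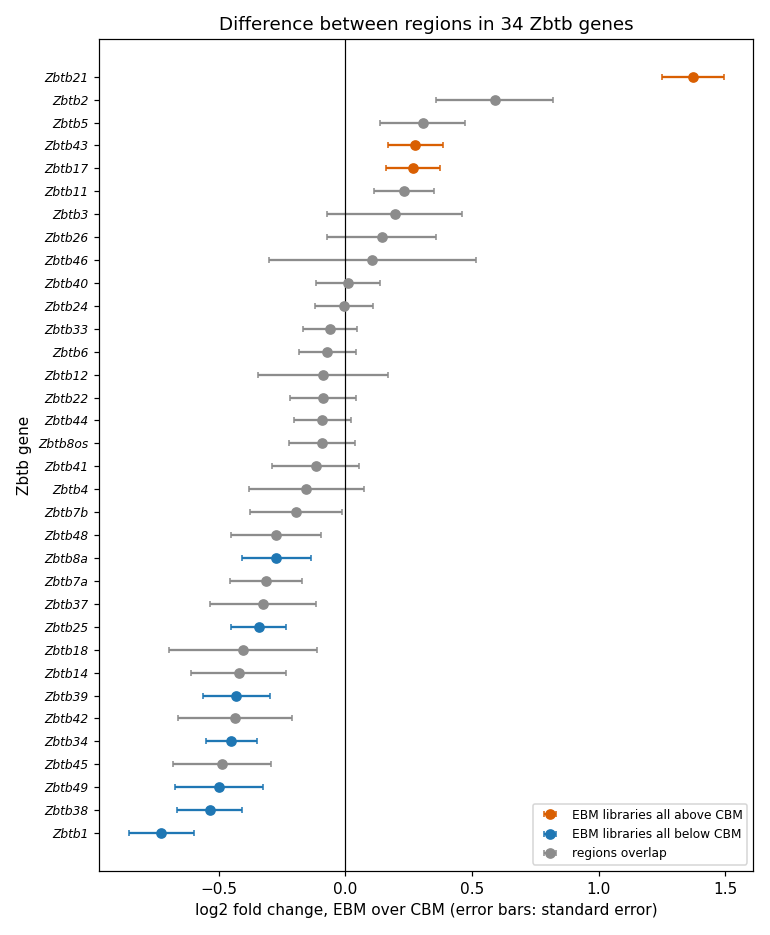
Log2 fold change (EBM over CBM, horizontal axis) of the 34 tested Zbtb genes with its standard error, orange and blue where the 3 EBM libraries lie all above or all below the 3 CBM libraries in CPM, grey where they overlap. Zbtb21 lies at 1.37 and Zbtb2 next at 0.59, while 24 genes lie below 0, down to Zbtb1 at -0.73.

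Zbtb1, which protects lymphoid progenitors from replication stress, was the lowest member by fold change. It had 54.7, 67.0 and 55.1 CPM in CBM and 31.7, 38.6 and 36.6 CPM in EBM, so the regions were clearly apart. The means were 58.9 ± 6.97 and 35.6 ± 3.51 CPM (SD, n = 3), a log2 fold change of -0.73 (SE 0.13), or 39.5% less in EBM. Zbtb38, a methylated DNA binder, came next with 56.3, 52.3 and 49.4 CPM in CBM and 38.8, 39.4 and 30.8 CPM in EBM, and a log2 fold change of -0.54 (SE 0.13).

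Zbtb49, which activates the cell cycle inhibitor gene Cdkn1a, had 14.7, 13.5 and 12.2 CPM in CBM and 10.8, 9.91 and 7.90 CPM in EBM (log2 fold change -0.50, SE 0.17). Zbtb34 had 43.6, 38.8 and 41.5 CPM in CBM and 30.7, 31.3 and 28.7 CPM in EBM (log2 fold change -0.45, SE 0.10). The gap between regions in Zbtb34 was wider than the spread within either. Zbtb39 averaged 20.8 ± 2.16 and 15.5 ± 1.01 CPM, and Zbtb8a 15.8 ± 1.58 and 13.1 ± 0.49 CPM, in CBM and EBM (SD, n = 3). Zbtb8a overlaps Zbtb8os by 920 bases on the opposite strand, and whether the counting used strand is not stated.

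**Figure D3:**
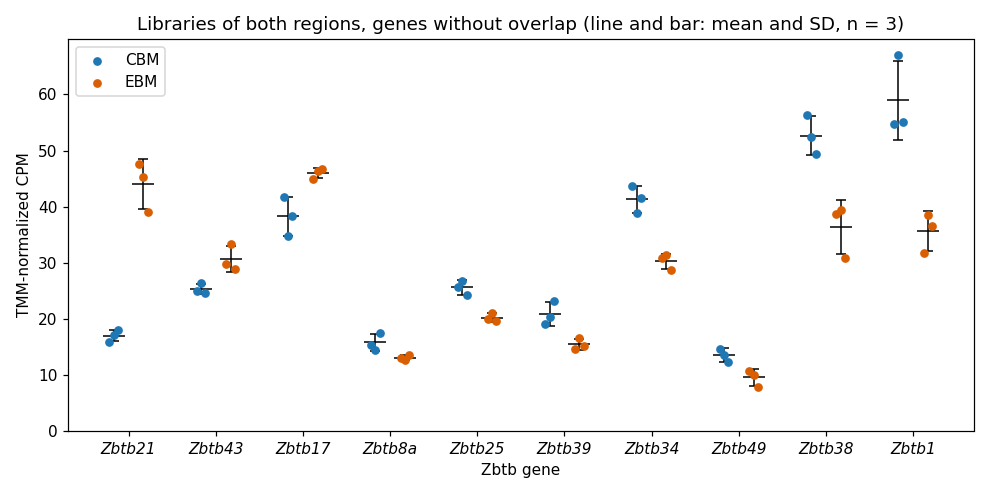
TMM-normalized CPM in each library of the 10 Zbtb genes whose regions do not overlap, with CBM in blue, EBM in orange, and the mean and SD of 3 libraries in black. Zbtb21 has the widest gap relative to its level, from 17 to 44.0 CPM on average, and Zbtb43 and Zbtb17 are the other genes higher in EBM.

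On the higher side, Zbtb43 had 25.0, 26.3 and 24.7 CPM in CBM and 29.8, 33.3 and 28.8 CPM in EBM, a log2 fold change of 0.28 (SE 0.11). Zbtb17 had 41.8, 34.7 and 38.3 CPM in CBM and 44.9, 46.4 and 46.7 CPM in EBM, a log2 fold change of 0.27 (SE 0.11). In both, the gap between the nearest libraries of the regions was only a few CPM.

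Zbtb2 and Zbtb5, repressors of the p53 pathway and of Cdkn1a, had the highest fold changes after Zbtb21, but their regions overlapped. Zbtb2 had 18.9, 17.9 and 16.9 CPM in CBM and 18.2, 28.2 and 34.5 CPM in EBM (log2 fold change 0.59, SE 0.23). EBM replicate 1 was thus at the CBM level, and only the other EBM libraries were above it. Zbtb5 averaged 16.3 ± 1.93 CPM in the CBM libraries and 20.1 ± 3.19 CPM in the EBM libraries (SD, n = 3). Cdkn1a itself had 134, 41.7 and 76.6 CPM in CBM and 217, 175 and 77.7 CPM in EBM, with overlapping regions.

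Among the lineage factors, Zbtb7a had 186, 238 and 196 CPM in CBM and 156, 151 and 193 CPM in EBM (log2 fold change -0.31, SE 0.14). EBM replicate 3 reached into the CBM range, so the regions overlapped in CPM. Zbtb7b had 44.2, 52.9 and 42.6 CPM in CBM and 34.2, 36.7 and 51.4 CPM in EBM (log2 fold change -0.19, SE 0.18). Here too EBM replicate 3 lay inside the CBM range. Zbtb24, the factor lost in an inherited immunodeficiency with unstable centromeres, differed little, at 19.7 ± 0.53 and 19.6 ± 1.39 CPM (SD, n = 3). Cdca7, which Zbtb24 activates, stood at 82.4 ± 12.8 and 84.6 ± 3.02 CPM.

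Zbtb46, a factor of classical dendritic cells, was the most variable member. It had 8.02, 23.8 and 9.73 CPM in CBM and 13.6, 13.7 and 17.4 CPM in EBM, and its coefficient of variation exceeded that of 87.5% of all tested genes. Its high value fell in CBM replicate 2, the library with the highest neutrophil and erythroid sums, and their part in it was not tested. The log2 fold change was 0.11 (SE 0.41) and became 0.75 without CBM replicate 2. In a bulk sample, fewer cells of a type and less RNA per cell cannot be told apart.

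The methylated DNA binders besides Zbtb38 showed smaller differences. Zbtb33 had 42.2, 41.0 and 42.9 CPM in CBM and 36.1, 41.6 and 43.1 CPM in EBM (log2 fold change -0.06, SE 0.11). Zbtb4 averaged 23.6 ± 6.99 and 21.2 ± 2.15 CPM (SD, n = 3), with a log2 fold change of -0.15 (SE 0.23). Zbtb48, which binds telomere repeats and trims long telomeres, averaged 17.8 ± 1.91 CPM in the CBM libraries and 14.7 ± 2.74 CPM in the EBM libraries. Zbtb10, another telomere binder, was not tested.

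Zbtb45 and Zbtb42 were among the members with lower means in EBM and overlapping regions. Zbtb45 had 29.5, 33.7 and 36.2 CPM in CBM and 20.4, 19.98 and 30.5 CPM in EBM (log2 fold change -0.49, SE 0.19). All 6137 bases of Zbtb45 overlap the highly counted gene Trim28 on the opposite strand, so its level is uncertain without knowledge of strand. Zbtb42 averaged 14.5 ± 2.37 and 10.7 ± 2.48 CPM, and Zbtb18, a repressor of neural development, 28.3 ± 8.28 and 21.3 ± 6.12 CPM (SD, n = 3). Zbtb37 averaged 45.5 ± 2.28 CPM in CBM and 36.3 ± 10.0 CPM in EBM, where EBM replicate 3 was low at 24.9 CPM. It overlaps Gas5, which had 7696 to 11078 counts, by 428 bases on the opposite strand.

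The remaining tested members differed little. Zbtb11, Zbtb3, Zbtb26, Zbtb40, Zbtb6, Zbtb12, Zbtb22, Zbtb44, Zbtb8os and Zbtb41 had log2 fold changes from -0.12 (Zbtb41) to 0.23 (Zbtb11), all with overlapping regions. In all, 19 of the 34 tested members lay within 0.3 of 0 on the log2 scale.

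**Figure D4:**
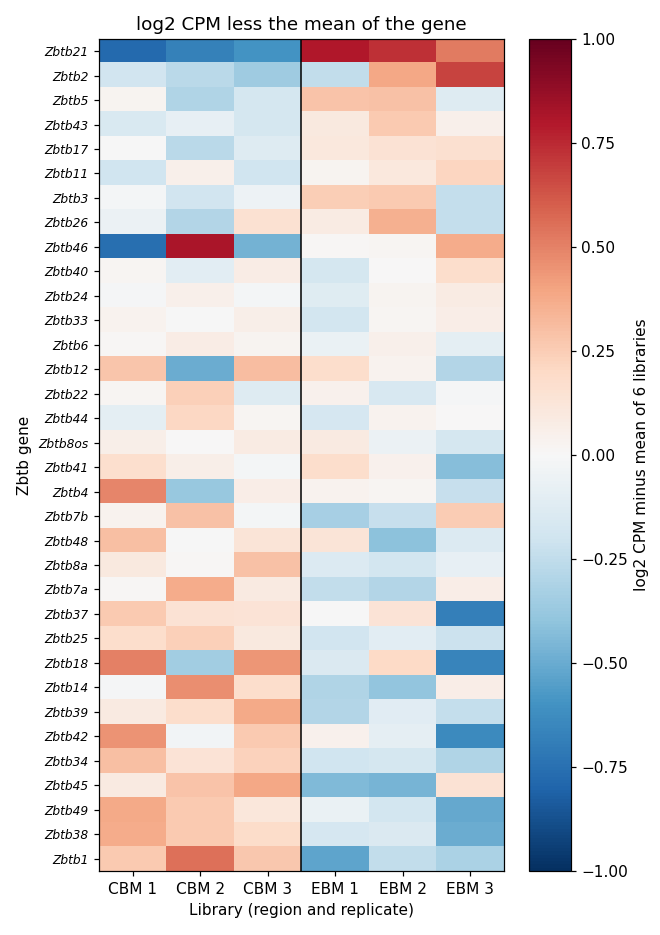
Log2 CPM of each tested Zbtb gene in each library less its mean over the 6 libraries (red above, blue below), with genes ordered by log2 fold change and a line between the regions. Zbtb21 is above its mean in all 3 EBM libraries and Zbtb1 below it, whereas Zbtb46 is high in CBM replicate 2 and Zbtb2 in EBM replicate 3.

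Across the 6 libraries, the members most like Zbtb21 in log2 CPM were Zbtb43 (Pearson's r 0.90), Zbtb17 (0.82) and Zbtb11 (0.71). The members most unlike it were Zbtb1 (-0.94), Zbtb34 (-0.94) and Zbtb25 (-0.94). These values are over 6 libraries that share the 2 regions, so they largely restate the difference between regions, and no test is given.

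Tested members formed 4 neighbouring or overlapping pairs. Zbtb25 and Zbtb1 point away from each other on chromosome 12, with 663 bases between them, and their windows are printed above. Zbtb25 had 25.7, 26.8 and 24.3 CPM in CBM and 19.9, 21.1 and 19.53 CPM in EBM (log2 fold change -0.34, SE 0.11), so both genes of the pair were lower in EBM without overlap, and their r over 6 libraries was 0.97. Zbtb34 and Zbtb43 follow each other on the minus strand of chromosome 2, with 18962 bases between them, and went opposite ways, at log2 fold changes of -0.45 and 0.28 and an r of -0.84. The overlapping pairs, whose reads may be shared, lay between these, with an r of 0.24 for Zbtb6 and Zbtb26 (log2 fold changes -0.07 and 0.14) and of 0.48 for Zbtb8os and Zbtb8a (-0.09 and -0.27).

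Summed over the 34 tested members, the family held 596, 604 and 604 TPM in the CBM libraries and 507, 528 and 501 TPM in the EBM libraries. The sums did not overlap, at 601 ± 4.46 and 512 ± 14.2 TPM (SD, n = 3), 14.9% less in EBM, on the scale whose general shift is given above. Without Zbtb7a the sums were 505 ± 9.10 and 440 ± 19.7 TPM. Without Zbtb21, through which the family was chosen, they were 593 ± 3.98 and 491 ± 12.7 TPM, 17.1% less in EBM. On the same scale the median log2 ratio of the members was -0.21, against -0.10 for all tested genes.

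A lean to lower levels in EBM was also seen outside the Zbtb genes. Of the 349 tested genes that the table assigns to the C2H2 zinc finger family, which is listed separately from ZBTB, 265 were negative, with a median log2 fold change of -0.24. In 113 of them, or 32.4%, every EBM library lay below every CBM library, against 20.6% of the tested Zbtb members and 7.65% of all tested genes. The median deviation of these genes from their own mean was 0.16, 0.11 and 0.10 in the CBM libraries and -0.09, -0.02 and -0.20 in the EBM libraries (log2 CPM). Many C2H2 genes are near-identical copies, so how their reads were divided is uncertain. Over all 37 tested genes that the table marks as ZBTB the median was -0.11. Of the 756 tested genes with any transcription factor family, which include ZBTB and C2H2, 61.9% were negative, with a median of -0.07. Without overlap, 18.5% of these 756 were lower and 8.86% higher in EBM, so the lean was not particular to the Zbtb genes.

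BTB zinc finger genes with other names were fewer. Of 8 listed, 6 were tested, 4 with positive and 2 with negative log2 fold changes. Bcl6b, a close relative of Bcl6, had 0.80, 1.47 and 0.69 CPM in CBM and 4.53, 3.45 and 2.38 CPM in EBM, a log2 fold change of 1.80 (SE 0.40). Hic2 had 3.13, 1.79 and 3.23 CPM in CBM and 6.79, 6.79 and 4.05 CPM in EBM, a log2 fold change of 1.11 (SE 0.32). Both were low genes whose regions did not overlap, and Zfp131 was also higher without overlap, at 59.3 ± 6.13 and 70.5 ± 2.44 CPM (SD, n = 3). These were 3 of 6 tested genes, against 7.47% of all tested genes. Patz1, Mynn and Gzf1 overlapped, and Bcl6 and Hic1 failed the filter.

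The partners through which BTB domains act are corepressors and a ubiquitin ligase subunit. All 13 listed genes were tested, 9 with positive and 4 with negative values and a median log2 fold change of 0.08, and 12 overlapped between regions, near the 84.9% of all tested genes that did. Ncor1 stood at 412 ± 17.1 and 417 ± 22.1 CPM, Bcor at 258 ± 22.9 and 281 ± 18.7 CPM, and Cul3 at 99.7 ± 8.94 and 94.3 ± 2.29 CPM (SD, n = 3). Sin3a, a scaffold for histone deacetylases, was the single one without overlap, at 95.3 ± 4.55 and 116 ± 3.27 CPM. Of the 10 listed genes known to be controlled by members, 9 had positive values (median 0.28), against 50.4% of all tested genes, and all 10 overlapped between regions, against 84.9%. Many of these varied within a region, as Cdkn2a did with 24.2, 3.001 and 5.71 CPM in CBM.

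Genes that respond to tissue dissociation were listed as well. Of the 16 listed dissociation and immediate early genes, 11 had positive and 5 negative values, with a median log2 fold change of 0.47. Their summed level was 12962, 8854 and 5216 CPM in CBM and 12867, 10994 and 11360 CPM in EBM, so the regions overlapped. The heat shock gene Hspa1b had 9.50, 3.74 and 3.37 CPM in CBM and 112, 50.3 and 58.6 CPM in EBM, Hspa1a, Junb and Nfkbia were also higher without overlap (4 of 16 genes, against 7.47% of all tested genes), and Dusp1 was lower at 896 ± 384 against 410 ± 33.7 CPM (SD, n = 3). None of these genes was at 0 in all libraries. Hspa1a and Hspa1b separated the regions in the same direction as Zbtb21, whereas the summed level, to which Fosb, Klf6 and Nfkbia contributed most, did not separate them. The part of these genes in the differences of the Zbtb genes was not tested.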

How the data were processed

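RNA of AE9a leukemia cells was sequenced from CBM (n = 3) and EBM (n = 3), grouped by the sample labels. The authors made directional libraries from rRNA-depleted RNA, although a label reads mRNA, and deposited raw counts per gene with a gene length in bases, used as given. HISAT2 2.0.5 and mm10 are named in the submitters' processing notes. The counter, its annotation and its use of strand are not given in the sources used here. Of the 41 members, 37 have the coordinates of GENCODE M21 (GRCm38). No column belonged to another sample.

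Genes were kept by filterByExpr (13352 of 54532), normalized by TMM (factors 0.948 to 1.037) and tested with edgeR 4.0.16 (R 4.3.3), the quasi-likelihood test, EBM over CBM, with Benjamini-Hochberg adjustment at 0.05 over all genes. The common dispersion was 0.0617. The method was tested on simulated data. CPM and TPM were computed from the deposited counts, and log2 CPM used a prior count of 2. Libraries of a region differed by more than sampling noise, so none was merged. Members and lists were chosen with earlier results of these data known. Members named with values are Zbtb21, those without overlap, the 5 highest and 5 lowest by log2 fold change and by TPM, those with a known role, and the 3 most and least correlated with Zbtb21. Zbtb18, Zbtb42 and other members were added after their values were seen. Alternatives were DESeq2 1.42.0, its size factors, limma-voom (limma 3.58.1), all genes with a count, the replicate block and each library left out, and, added after seeing the data, a loess correction for gene length (span 0.3), TPM, and members by the table's family column. Protein sequences were not analysed here.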

Additional observations from a re-analysis of the deposited data

How the results depend on the processing

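No member was called by edgeR at an adjusted p of 0.05, with DESeq2 size factors, limma-voom or any library left out. No other gene was called in these settings either. DESeq2 called 2 members (Zbtb21, Zbtb1), of 175 genes in all, and the fit over every gene with a count and the gene length correction each called 1 (Zbtb21), of 40 and 3 genes in all. Members without overlap and higher in EBM were 3 (7.47% of all tested genes), and between 3 and 5 with a library left out (10.6% to 13.4%). Those lower were 7 (7.65%), and between 8 and 12 with a library left out (10.5% to 13.97%). The highest lower count came without CBM replicate 2 (11 without EBM replicate 3). On the TPM scale, where the TMM factors are not applied, these counts were 1 and 14, against 3.28% and 14.2% of all tested genes. With fewer libraries, regions separate more easily by construction.

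The family median of -0.10 ran from -0.18 (without EBM replicate 1) to -0.12 with a library left out, and was -0.16 without CBM replicate 3. It was negative under all 13 alternatives. The log2 fold change of Zbtb21 stayed between 1.31 and 1.44 over its 12 alternatives. Of the other 33 members, 24 kept their sign throughout and 9 changed it at least once. Zbtb46 ranged most widely, from -0.17 to 0.75. Some others also moved by more than their SE, as Zbtb45 did from -0.49 (SE 0.19) to -0.72 without EBM replicate 3. The C2H2 genes had 252 to 273 negative values of 349.

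Same-numbered libraries deviated together only in part (r 0.68, -0.20 and 0.20), so the numbers were not used to pair them, and whether they share mice is not stated. With the replicate block neither a member nor any other gene was called, and the family median was -0.11.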
